A study of Mus musculus with 2 samples.

Results

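Serpin genes of liver and plasma were followed in brain RNA of male Il18-/- and Il18+/+ mice. The set comprised 8 genes, Serpina1a, Serpina1b, Serpina1c, Serpina1d, Serpina1e, Serpina3k, Serpina6 and Serpinc1, out of 20660 named genes with a probe on the array. They were picked by name, with their signals on these same arrays already known, so the values that chose them are given as a description and no value of theirs is a test. All probes whose accession named 1 of the 8 genes were kept, which gave 11 probes of 55675 for 7 genes, and no probe was matched to Serpina1b. The Il18-/- mice were deficient in the inflammatory cytokine interleukin-18, and the Il18+/+ mice were wild type. Both groups were on a C57Bl/6 N background and were 12 weeks old. Total RNA of 7 mice was pooled per genotype, and each Cy3-labelled pool went onto its own Agilent array, with 1 colour per array. The sample labels give hippocampus as the tissue, whereas the protocol for extraction, like some of the design text, names prefrontal cortex. With 1 pool per genotype, differences between animals cannot be seen and nothing could be tested, and precision is limited by the number of arrays.

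Serpins are a family of proteins best known as protease inhibitors. An inhibitory serpin offers an exposed loop as bait, and the protease that cuts it becomes trapped in a covalent complex. Many circulating serpins are made by hepatocytes and secreted into plasma, while the brain makes members of its own, such as neuroserpin. The mouse carries several near-identical Serpina1 copies side by side on chromosome 12, all counterparts of the human gene for alpha-1-antitrypsin, which in humans inhibits neutrophil elastase. Transcription of alpha-1-antitrypsin in hepatocytes is known to depend on HNF-1, a factor whose site is built from inverted copies of GTTAAT.

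How alike the Serpina1 copies are can be seen near the annotated transcript starts of their genes. The stretches shown are RefSeq sequence of GRCm38.p6, a later build than the mm9 build of the array design, and all 5 lie on the minus strand of chromosome 12. They span chr12:103863575-103863700 for Serpina1a, chr12:103738150-103738275 for Serpina1b, chr12:103904912-103905037 for Serpina1c, chr12:103773584-103773709 for Serpina1d and chr12:103956910-103957035 for Serpina1e. Capitals mark GTTAAT.
Serpina1a: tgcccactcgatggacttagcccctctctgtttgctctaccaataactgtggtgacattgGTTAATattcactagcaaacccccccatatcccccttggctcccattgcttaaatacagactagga
Serpina1b: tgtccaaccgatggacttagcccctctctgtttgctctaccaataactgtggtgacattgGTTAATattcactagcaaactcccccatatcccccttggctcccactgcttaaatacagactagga
Serpina1c: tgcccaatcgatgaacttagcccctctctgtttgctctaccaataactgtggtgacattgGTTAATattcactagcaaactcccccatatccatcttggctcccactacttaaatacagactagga
Serpina1d: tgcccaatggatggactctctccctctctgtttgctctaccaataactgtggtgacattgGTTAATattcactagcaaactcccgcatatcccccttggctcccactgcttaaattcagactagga
Serpina1e: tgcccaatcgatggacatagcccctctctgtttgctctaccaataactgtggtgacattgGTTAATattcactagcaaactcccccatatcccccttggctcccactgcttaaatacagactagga
Each window holds 126 bases, 60 of them before the capitals, and the 10 pairs of windows were 91.27% to 97.62% identical. The capitals began 21, 26, 27, 16 and 78 bases before the annotated transcript starts of Serpina1a, Serpina1b, Serpina1c, Serpina1d and Serpina1e, in that order. The windows of Serpina1a, Serpina1b, Serpina1c and Serpina1d therefore ran past the start into transcribed sequence, and only that of Serpina1e ended before it. Searched on both strands, GTTAAT occurred in 7.1% of 32851 RefSeq promoters of 300 bases. The longer GTTAATATTCAC, which contains it, occurred in 5 promoters, 0.0152% of all, and those were the 5 Serpina1 copies. Both motifs were chosen after the sequences had been read, and a match is a description of letters only. Serpinc1 lies on the plus strand of chromosome 1, and its whole promoter at chr1:160978333-160978632 held GTTAAT on neither strand, so it has no capitals.
Serpinc1: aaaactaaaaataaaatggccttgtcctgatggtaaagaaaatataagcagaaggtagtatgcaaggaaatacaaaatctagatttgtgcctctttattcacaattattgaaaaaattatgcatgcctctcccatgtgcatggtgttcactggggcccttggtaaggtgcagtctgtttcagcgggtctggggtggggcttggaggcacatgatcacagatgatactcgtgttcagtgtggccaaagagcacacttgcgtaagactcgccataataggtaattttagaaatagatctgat
Of the 54 serpin genes with a promoter in the RefSeq table, 11 held GTTAAT, and 6 of those lay outside the set: Serpina3c, Serpina7, Serpinb3b, Serpinb3d, Serpinb8 and Serpini2. The table had an entry for 6 of the 8 genes, all but Serpina3k and Serpina6.

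The Serpina1 probes read several times more signal in the Il18-/- pool. Values are given for each probe as processed intensity, with the error that the scanner software attached to it, and as a level, the log2 of that intensity minus the 75th percentile of its array. Serpina1a, a copy for alpha-1-antitrypsin, had 2 probes. Its probe A_55_P2165414 read 2831 ± 283.1 in Il18-/- and 374.6 ± 37.6 in Il18+/+, and after scaling was 7.40-fold higher in Il18-/-, or 2.89 on the log2 scale (levels 2.0 in Il18-/- and -0.89 in Il18+/+). Its probe A_55_P2010312 read 176.5 ± 18.02 in Il18-/- and 30.5 ± 4.49 in Il18+/+, and was 5.67-fold higher in Il18-/-, or 2.503 on the log2 scale (levels -2.01 in Il18-/- and -4.51 in Il18+/+). Both probes were well above background on both arrays, and the errors of the 2 genotypes did not overlap for either.

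Serpina1c was read by the single probe A_55_P2010301 at 2518 ± 251.8 in Il18-/- and 319.3 ± 32.2 in Il18+/+. It was 7.72-fold higher in Il18-/-, or 2.95 on the log2 scale, with levels of 1.83 in Il18-/- and -1.12 in Il18+/+. Serpina1e had the probes A_55_P2113857, at 2359 ± 236 in Il18-/- and 318.2 ± 32.0 in Il18+/+, and A_55_P2010292, at 520.3 ± 52.1 in Il18-/- and 113.5 ± 11.7 in Il18+/+. The log2 differences of these probes were 2.86 (levels 1.73 in Il18-/- and -1.13 in Il18+/+) and 2.17 (levels -0.45 in Il18-/- and -2.61 in Il18+/+), so both were higher in Il18-/- by over 4-fold. Serpina1d, another copy of the alpha-1-antitrypsin gene, was well above background in Il18-/- only. Its probe A_55_P2010298 read 80.8 ± 8.78 in Il18-/- and 14.3 ± 3.53 in Il18+/+, which makes it at least 5.38-fold higher in Il18-/-. Its probe A_66_P121117 read 30.1 ± 4.92 in Il18-/- and 4.37 ± 3.58 in Il18+/+, at least 2.001-fold higher in Il18-/-. Such a lower bound sets the Il18-/- value against the probe's own Il18+/+ level or against a floor, whichever is higher. The floor was -5.56, the lowest level called well above background for any probe on the Il18+/+ array. The errors were left out and a given probe may need a higher floor, so a true fold could be smaller. Later bounds were made in the same way. Over the 5 Serpina1 probes measured on both arrays the log2 differences spread with an SD of 0.33, which describes probes and not replicates. Copies this similar may share RNA between probes, and which copy each probe reads was not tested, so the 7 Serpina1 probes may not be 7 separate readings.

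The plasma serpins outside the Serpina1 group gave 1 bounded, 1 measured and 1 unmeasured gene. Serpina3k, a relative of human alpha-1-antichymotrypsin, was read by A_52_P319093 at 117.1 ± 12.4 in Il18-/- and 11.04 ± 4.05 in Il18+/+. The Il18+/+ signal was not well above background, and the gene was at least 7.80-fold higher in Il18-/- by the same bound, with the errors left out. Serpinc1 codes for antithrombin, the plasma inhibitor of thrombin and other clotting proteases. Its probe A_52_P409746 read 174 ± 17.9 in Il18-/- and 30.4 ± 4.79 in Il18+/+, and was 5.61-fold higher in Il18-/-, or 2.49 on the log2 scale (levels -2.03 in Il18-/- and -4.52 in Il18+/+). Serpina6 codes for corticosteroid-binding globulin, a serpin that carries glucocorticoids and does not inhibit proteases. Neither of its probes was well above background on either array. A_51_P133562 read 13.7 ± 3.81 in Il18-/- and 12.0 ± 3.45 in Il18+/+, and A_55_P2178036 read 8.93 ± 3.89 in Il18-/- and 3.74 ± 3.55 in Il18+/+. For each of these probes the errors of the 2 genotypes overlapped, and no fold is given.

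**Figure D1:**
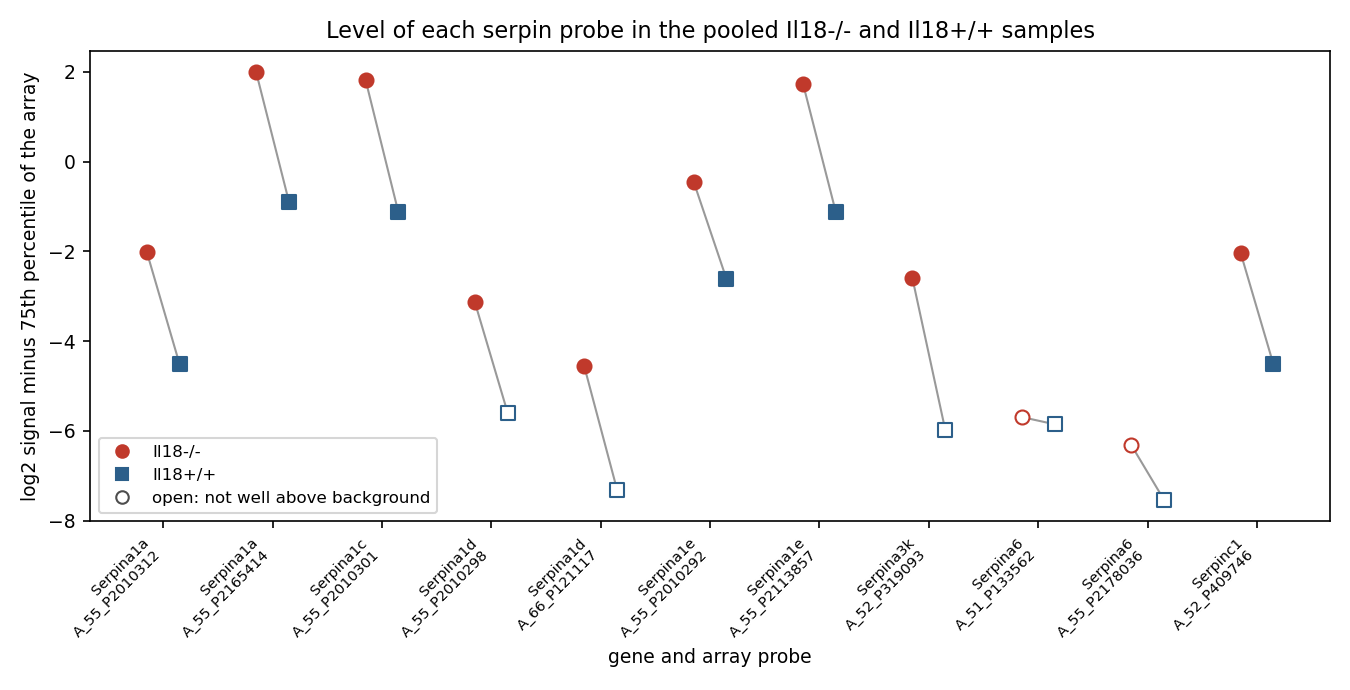
Levels of the 11 probes (vertical axis, log2 intensity minus the 75th percentile of the array), Il18-/- left of Il18+/+ within each probe. Filled points are well above background and open points are not. The 6 probes filled on both arrays differ by 2.17 to 2.95, 3 probes are filled in Il18-/- only and both Serpina6 probes are open. Levels of different probes are not comparable.

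In all, 6 of the 11 probes were measured on both arrays, 3 were well above background in Il18-/- only, none in Il18+/+ only and 2 on neither. Each of the 6 measured probes was past 2-fold higher in the Il18-/- pool, a size that 0.64% of the 35634 measured probes of the array reached. The same 6 were past 1.5-fold, which 2.02% of those probes reached, and 1.42% of all 55675 probes were well above background in Il18-/- only. The members were picked on this very comparison, so nothing is read from these counts. The median log2 difference of the 6 probes was 2.68, or 6.41-fold, while the median over all measured probes was 0.01 and the 5th to 95th percentiles ran from -0.52 to 0.37. Ranked from the highest difference, the 6 probes took places between 39 and 73 of 35634. At gene level, with measured probes averaged, the log2 differences were 2.95 for Serpina1c, 2.70 for Serpina1a, 2.51 for Serpina1e and 2.49 for Serpinc1, at places 23, 26, 28 and 30 of 15738 measured genes.

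The spread of repeated spots gives the error within an array pair. Over 304 probes printed at least 5 times, the SD of the log2 difference had a median of 0.07 and a 95th percentile of 0.27. In the 45 of these with an Il18+/+ level under -3, where Serpinc1 and Serpina1a probe A_55_P2010312 lie, the median SD was 0.22 and the 95th percentile 0.48. All 6 measured differences were larger than that, although each serpin probe had a single spot and this spread leaves out animals and pools. The members were also picked with these differences known, so the comparison is a description and no test. With normexp in place of the software's background subtraction, the log2 differences of the same 2 dim probes were 1.26 for Serpinc1 and 1.43 for Serpina1a probe A_55_P2010312. Scaling the arrays to their 8 spike-in probes lowered every difference by 0.29. The 18 spots nearest to each serpin spot had a median log2 difference between -0.20 and 0.16. No serpin spot had more than 1 of those neighbours at 2-fold higher or more, and 8 of the 11 had none. The probe for Il18, the targeted gene, was at a level of -0.12 in Il18-/-, against 1.37 in Il18+/+ (log2 difference -1.49), and was still well above background in Il18-/-. Its place relative to the deleted part of Il18 is not known here.

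Most members sit in a row of serpin genes on chromosome 12, which holds 28 genes and pseudogenes in the RefSeq annotation, 7 of them members. Of the 21 others, 16 had a probe and 8 were measured. Only Serpina3m among those 8 was at least 1.5-fold higher in Il18-/-, and none of the 8 was at least 1.5-fold lower or at least 2-fold higher. The median log2 difference of the 8 was -0.11, with a range of -0.56 for Serpina3h to 0.84 for Serpina3m. The genes that flank the Serpina1 copies were near 0. Serpina1f, on the side of Serpina1b, was at -1.74 in Il18-/- and -1.79 in Il18+/+, with a log2 difference of 0.06. On the other side, Serpina11 had a log2 difference of -0.09 and Serpina9 of -0.13. Serpina3n, at the end of the row and known as a gene of reactive astrocytes, had a log2 difference of -0.23. Serpina4-ps1, a pseudogene, was well above background in Il18-/- only, at least 1.31-fold higher, and Serpina3f in Il18+/+ only.

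**Figure D2:**
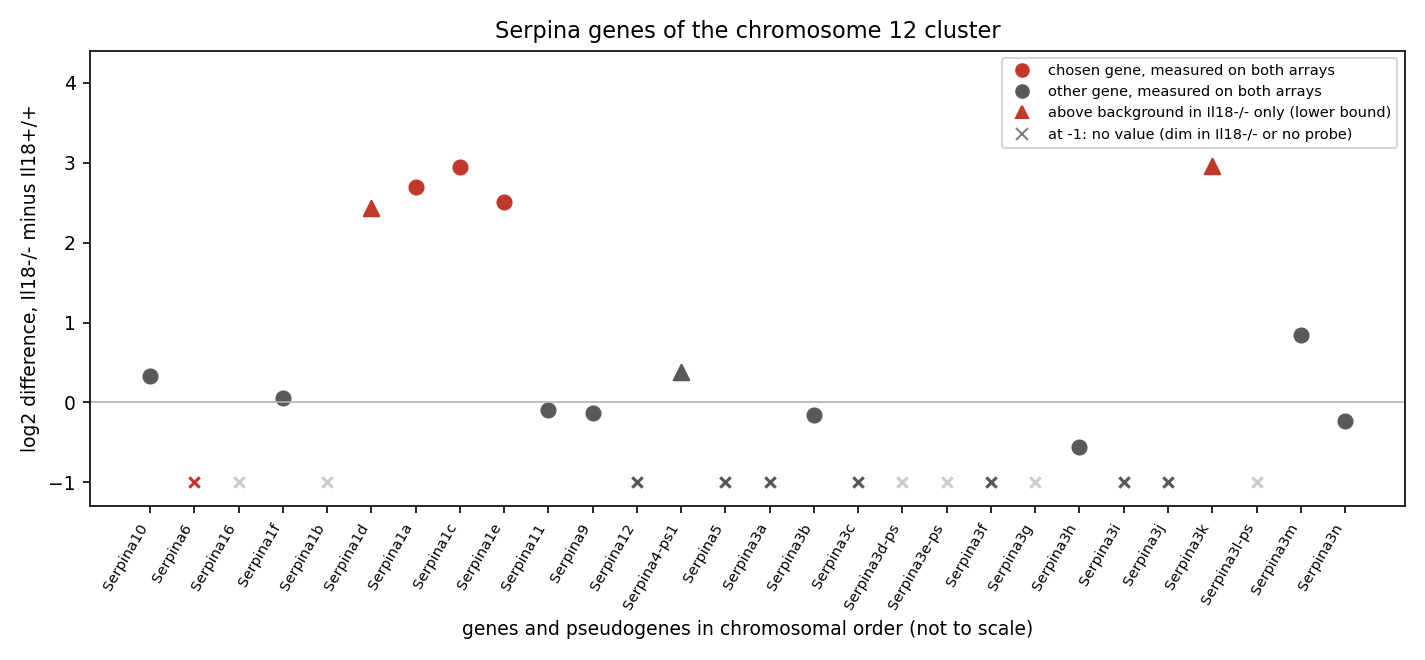
Log2 difference, Il18-/- minus Il18+/+ (vertical axis), of each serpin gene in its order along chromosome 12 (horizontal axis, not to scale). Members and other genes are in different colours, triangles are lower bounds (the higher of 2 for Serpina1d) and genes with no measured value are marked as such. Serpina1a, Serpina1c and Serpina1e stand between 2.51 and 2.95, and their measured neighbours Serpina1f, Serpina11 and Serpina9 lie between -0.13 and 0.06.

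The rest of the serpin family comprised 56 genes, 52 of them with a probe. Pseudogenes were left out by their symbol only, so Serpina3h, annotated as a transcribed pseudogene, stayed in. In Il18-/- relative to Il18+/+, 12 of the 27 measured genes were higher and 15 lower, with a median log2 difference of -0.09. At least 1.5-fold higher were 2 of the 27, a size reached by 1.68% of all measured genes, and at least 1.5-fold lower was 1, a size reached by 2.57%. Serpinf2, the liver-made plasmin inhibitor alpha-2-antiplasmin, was at -2.08 in Il18-/- and -3.23 in Il18+/+, 2.22-fold higher, with a log2 difference of 1.15 that was 0.61 with normexp. Serpina3m, a neighbour of Serpina3k, was at -4.23 in Il18-/- and -5.07 in Il18+/+, 1.79-fold higher, but its log2 difference of 0.84 was 0.19 with normexp. Serpinb1b was at -3.21 in Il18-/- and -2.59 in Il18+/+, with a log2 difference of -0.62 that was -0.35 with normexp. Among the genes not measured, 1 was well above background in Il18-/- only, 1 in Il18+/+ only and 23 on neither array.

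Among these 56, no measured liver-made gene had a log2 difference above 1.15, and the lowest measured member probe was at 2.17. Of 9 liver-made genes, 6 were measured, with a median log2 difference of 0.16 that was -0.13 when the arrays were scaled to their spike-in controls. Beside Serpinf2 and Serpina3m, Serpina10, the inhibitor of clotting factor X that acts with protein Z, had a log2 difference of 0.33. That value came from its 1 measured probe, and was 0.93 with its dim second probe averaged in and 0.04 with spike-in scaling. Serpind1, heparin cofactor II, had a log2 difference of -0.23. Serpina3c, Serpina7 and Serpina12 were not well above background on either array. Of the 7 serpins known from brain cells all were measured, 2 with a higher and 5 with a lower signal in Il18-/-, and none reached 1.5-fold either way. Their median was -0.23, and the largest log2 differences were -0.44 for Serpinh1, a collagen chaperone, -0.35 for Serpinb1a, an inhibitor of neutrophil proteases, and 0.28 for Serpinf1, which codes for pigment epithelium-derived factor. With spike-in scaling the median was -0.53, and Serpinh1 at -0.74 and Serpinb1a at -0.64 were past 1.5-fold lower, while Serpinf1 was just under 0. Serpini1, which codes for neuroserpin, the neuronal inhibitor of tissue plasminogen activator, had a log2 difference of -0.26.

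Proteases that these serpins inhibit, and genes of corticosteroid action, were listed next to their inhibitors. The 3 neutrophil proteases were all measured and none of the 3 differed by 1.5-fold, at -0.24 for Prtn3, -0.12 for Elane (neutrophil elastase) and 0.15 for Ctsg. Prtn3 and Ctsg were dim, at levels of -4.66 and -4.80 in Il18-/- and -4.42 and -4.95 in Il18+/+. Elane was at 1.15 in Il18-/- and 1.27 in Il18+/+, and what its probe reads was not tested. Of 8 plasma proteases, F2 and Plg were well above background in Il18-/- only. F2, the gene of prothrombin and so of the protease that antithrombin blocks, was at least 6.27-fold higher, and Plg, the gene of plasminogen, at least 3.27-fold higher. The 4 measured plasma proteases had a median log2 difference of 0.29, which was just under 0 with spike-in scaling and -0.12 with the stricter filter on dim probes, but 1.15 with no filter, where F10 was at 1.52. Klkb1, plasma kallikrein, was 1.73-fold higher in Il18-/- (0.79, against 0.25 with normexp), F12 differed by 0.45 and F9 by -0.37. F10 differed by 0.13 on its 1 measured probe, and the value of 1.52 averages in its dim second probe. The measured F10 probe was at 8.21 in Il18-/- and 8.08 in Il18+/+, and what it reads was not tested. F7 and F11 were on neither array above background. Tmprss6, a liver membrane protease, was 1.502-fold higher, with a log2 difference of 0.59 that was 0.37 with normexp and 0.29 with spike-in scaling. Among genes of corticosteroid action, the glucocorticoid receptor Nr3c1 differed by -0.26, the mineralocorticoid receptor Nr3c2 by -0.18 and Hsd11b1, which regenerates active glucocorticoid, by 0.16. The 2 Nr3c1 probes disagreed, at -0.66 and 0.15.

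Other liver genes are given beside the serpins because many of them also differed between the arrays. The lists were chosen with these results known. Of 30 genes for plasma proteins made by liver, 26 were measured, and 20 of them were higher and 6 lower in Il18-/-, with a median log2 difference of 1.13. At 1.5-fold or more, 17 were higher and 1, Ttr at -0.96, was lower, against 1.68% and 2.57% of all measured genes. The largest difference was that of Alb, the gene of serum albumin, 12.5-fold higher, followed by Ambp, the precursor of alpha-1-microglobulin and bikunin, 8.74-fold higher. Of 23 liver metabolic enzymes, 12 were measured with a median of 0.32, and 5 of them were at least 1.5-fold higher, while 9 were above background on neither array. Cyp2e1, an ethanol-metabolising cytochrome, was 3.67-fold higher and Uox, the uricase, 2.29-fold higher. With normexp the log2 differences were 1.83 for Alb, 1.86 for Ambp, 1.15 for Cyp2e1 and 0.65 for Uox, against 3.64, 3.13, 1.88 and 1.19 as reported. Of 10 liver transcription factors, the 3 measured had log2 differences of -0.54 for Nr5a2, -0.26 for Nr1h4 and -0.16 for Cebpa. Hnf4a was at least 2.60-fold higher and above background in Il18-/- only, and the other 6 were not well above background on either array.

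Marker lists for cell types were read in the same way, and their part in the serpin differences was not tested. In bulk RNA, fewer cells of a type and less RNA per cell cannot be told apart. All 15 hepatocyte markers were also in the liver lists above, so they are not new readings. Those lists had medians of 1.13 for plasma proteins, 0.32 for enzymes and -0.26 for transcription factors. Of the 15 markers, 12 were measured, and 11 of the 12 were at least 1.5-fold higher in Il18-/-. That size was reached by 1.68% of all measured genes. The 12 markers had a median log2 difference of 1.93 (1.14 with normexp). Their levels ran from -2.32 to 1.32 in Il18-/- and from -4.95 to 0.41 in Il18+/+. Apoa1 and Hnf4a were above background in Il18-/- only, and Cps1 on neither array. Cyp3a11 differed by -0.17 on its 1 measured probe, and by 1.78 when its dim second probe was averaged in. Of 12 blood cell markers, 9 were measured with a median of 0.12 (-0.17 with spike-in scaling). Of these 9, S100a9 at 1.33 and S100a8 at 0.96 passed 1.5-fold, and with normexp they were at 0.83 and 0.39. Among the other neutrophil genes of the list, Camp differed by -0.15, and Ngp and Ltf were not well above background on either array. The haemoglobin genes Hba-a1 and Hbb-bt differed by 0.18 and 0.14. All 10 neuron markers were measured on both arrays, among them Prox1, a gene of dentate granule cells in the hippocampus. All 10 choroid plexus markers were lower in Il18-/-, with a median of -1.19. All 7 measured medial habenula markers were higher, with a median of 1.57 (0.91 with normexp). The medians were -0.02 for 10 neuron markers, 0.01 for 10 glial markers, 0.03 for 4 measured kidney markers and -0.11 for 4 measured exocrine pancreas markers. Neuron marker levels ran from -1.90 to 6.73 in Il18-/- and from -1.88 to 6.81 in Il18+/+.

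**Figure D3:**
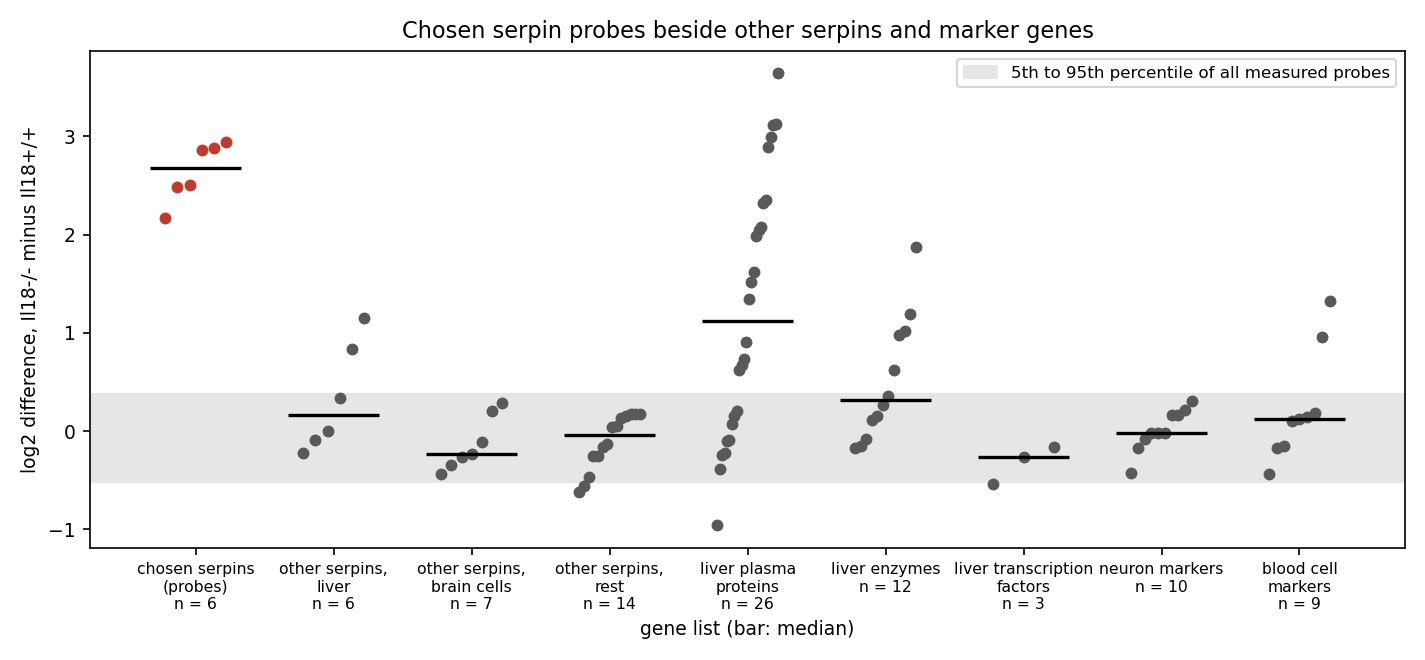
Log2 difference, Il18-/- minus Il18+/+ (vertical axis), of each measured gene, or probe for the chosen serpins (points), by list (horizontal axis), with the list's median as a bar and the 5th to 95th percentiles of all measured probes as a grey band. The medians are 2.68 for the 6 chosen serpin probes, 0.16 for other liver serpins, -0.23 for brain-cell serpins, 1.13 for liver plasma proteins and -0.02 for neuron markers.

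Outside the serpin family, the 5 genes with differences nearest to the members' median of 2.68, taken from genes whose level lay above the 25th percentile, were Tac2, Mup5, Cad, Hp and Kng1. Likeness was the absolute distance in log2 difference over the 2 arrays, and it was 0.12, 0.14, 0.28, 0.33 and 0.36 in that order. Tac2, the neurokinin B precursor and a medial habenula gene, was at 2.02 in Il18-/- and -0.78 in Il18+/+, with a log2 difference of 2.80. Mup5, a major urinary protein, was at -0.86 in Il18-/- and -3.41 in Il18+/+, with a log2 difference of 2.55. Cad, an enzyme of pyrimidine synthesis, was at -0.53 in Il18-/- and -3.49 in Il18+/+, with a log2 difference of 2.96. Hp and Kng1, which code for the plasma proteins haptoglobin and kininogen, were 5.10-fold and 4.998-fold higher in Il18-/-. With 1 array per genotype this likeness rests on a single difference per gene. With normexp the log2 differences were 2.62 for Tac2, 1.82 for Mup5, 2.05 for Cad, 1.84 for Hp and 1.23 for Kng1.

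**Figure D4:**
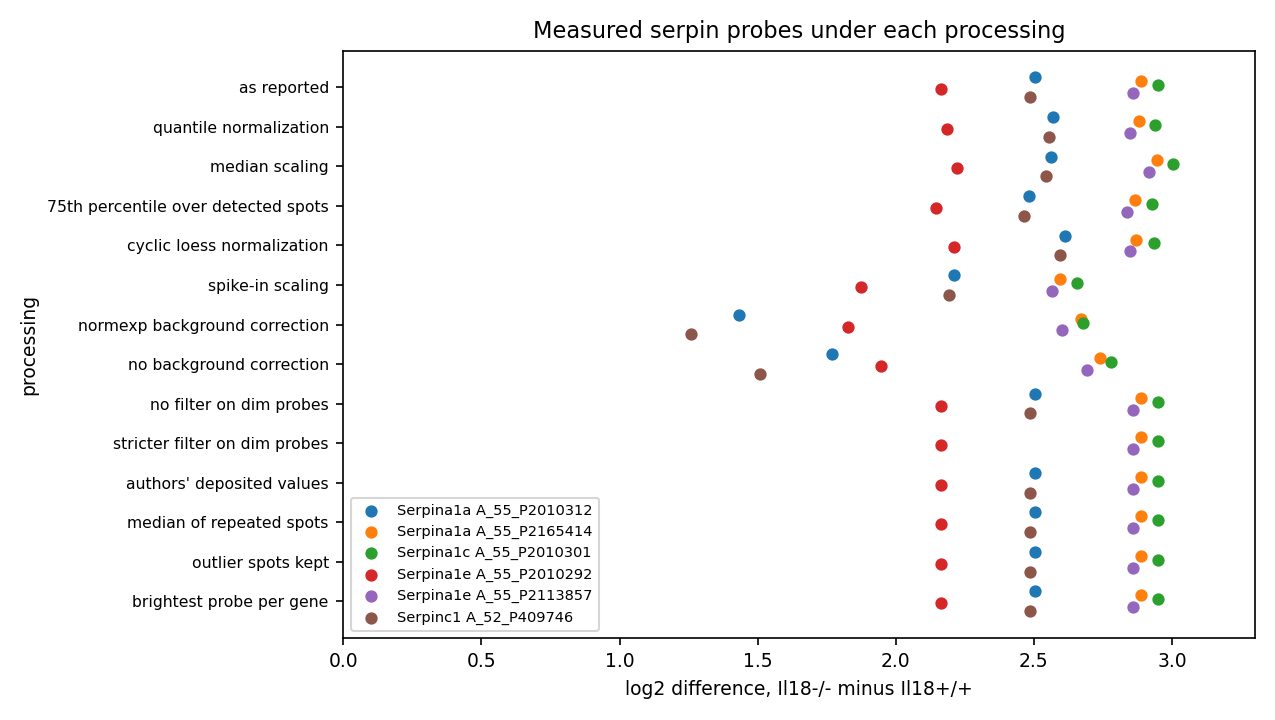
Log2 difference, Il18-/- minus Il18+/+ (horizontal axis), of the 6 measured member probes under each way of processing (rows). Points are probes, no point lies below 1, and the stricter filter leaves 4 of them. The lowest value is 1.26, for Serpinc1 with normexp, and the highest is 3.01, for Serpina1c with median scaling.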

How the data were processed

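The authors' deposited intensity values were made with Agilent Feature Extraction, version 10.10.1.1 in the submitters' processing notes. Per the file headers each array was background-subtracted and detrended on its own, with no scaling between the arrays. The array design refers to mm9. Both arrays were on 1 slide and in 1 scan. The authors' deposited value table held the same intensity, linear and uncentred, multiplied by 1.92 (Il18-/-) or 2.05 (Il18+/+), with column medians of 139.5 and 151.5 in that order. What set the constants is unknown.

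Control spots (3671 of 62976) and outlier spots (177 in Il18-/-, 124 in Il18+/+) were left out. No spot was saturated. Levels are log2 intensity minus the 75th percentile of the array (709.9 in Il18-/-, 694.8 in Il18+/+), with spots of 1 probe averaged. Well above background were 65.4% of probes in Il18-/- and 67.2% in Il18+/+. A probe was measured when it was so on both arrays, and a gene's difference was the mean over its measured probes. Accessions matched to RefSeq genes of GRCm38.p6 named 27234 probes, none with several symbols, and left 28441 unnamed.

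The 8 members and all lists were chosen with earlier results of these data known. Named genes were all member probes, other serpins past 1.5-fold, up to 4 members per list by largest difference, up to 2 per list above background on 1 array only, Il18, and the 5 nearest genes. Every other gene (flanking serpins, haemoglobin, Cyp3a11, Ttr and the like) was named after its values were seen. Calculations were checked on simulated data. Alternatives were other normalizations (quantile, median, loess, a percentile over bright spots, spike-in), normexp (offset 50) on the median signal, other filters, other treatment of repeated and outlier spots, the brightest probe and the authors' table. Software was R 4.3.3 with limma 3.58.1, and Python 3.11.15 with biopython 1.88, matplotlib 3.10.9, pandas 2.3.3 and numpy 2.4.6.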

Additional observations from a re-analysis of the deposited data

How the results depend on the processing

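No paired analysis was possible because each genotype had 1 sample, and for the same reason no replicate could be left out. Each member probe had 1 unflagged spot, so only the 7 alternatives that change the scaling or the background could move its value. Of the 42 member values under these 7, none was reversed and none was below 1. Against the median SD of all repeated spots, 0.07, 22 moved by less and 20 by more. The median SD of dim repeated spots was 0.22 and was not used here. The 20 therefore include the loess values of 2.61 for Serpina1a probe A_55_P2010312 and 2.60 for Serpinc1, which moved by less than that. The median of the member probes was 2.68 as reported, 2.39 with spike-in scaling, 2.21 with normexp, 2.32 without background correction, 2.503 with no filter on dim probes, and 2.87 both with a stricter filter and with the brightest probe per gene. Without a filter, 10 of 11 probes were at least 2-fold and 10 at least 1.5-fold higher, against 6 as reported. At 2-fold, so were 1355 of all 55675 probes. The 10 include Serpina6 probe A_55_P2178036, which was not well above background on either array, so nothing is read from this count. The median of the other serpins was -0.38 with spike-in scaling, 0.0498 with no filter and -0.0048 with the stricter filter. Of these, 1 instead of 2 was at least 1.5-fold higher with spike-in scaling, normexp, no background correction or the stricter filter, and in each case it was Serpinf2. At least 1.5-fold lower were 0 instead of 1 with quantile, median or loess normalization, normexp or no background correction, 5 with spike-in scaling and 3 with no filter. Over all probes, 228 higher and 176 lower at 2-fold became 97 and 42 with normexp, 121 and 62 without background correction, 149 and 666 with spike-in scaling, 138 and 82 with the stricter filter, and 1355 and 2299 with no filter. Signal over background limits Serpina1d, Serpina3k and Serpina6, for which no fold between measured levels can be given.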
